A study of Mus musculus with 24 samples.

Results

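The Hippo core kinases, their partners and 4 of the Rassf scaffolds were followed at the RNA level while mouse myoblasts differentiated with or without silencing of Tead1 and Tead4. The 10 genes, out of the 28109 in the deposited count table, were taken by name: Stk3, Stk4, Sav1, Lats1, Lats2 and Nf2 as the core kinases and their partners, and Rassf1, Rassf2, Rassf4 and Rassf5 as the Rassf scaffolds. All 10 had enough reads to be tested in each fit. On the NCBIM37 assembly (mm9) the core genes lie at chr15:34805251-35085561 (Stk3), chr2:163896058-163981260 (Stk4), chr12:71065999-71087989 (Sav1), chr10:7401007-7436256 (Lats1), chr14:58260914-58377225 (Lats2) and chr11:4665848-4749539 (Nf2). The Rassf genes lie at chr9:107453886-107464594 (Rassf1), chr2:131815151-131855994 (Rassf2), chr6:116583026-116623854 (Rassf4) and chr1:133072987-133141835 (Rassf5), and the counts are of reads on annotated exons.

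The libraries came from C2C12 cells, an established mouse myoblast line of C3H origin per the labels, and from PMs (primary myoblasts) of wild-type C57/B6 mice aged 3 to 4 weeks. Cells of both kinds received either siControl, an siRNA against luciferase according to the labels, or siTead1/4, which targets Tead1 and Tead4 together, and were then moved from growth medium with foetal calf serum to a low horse serum medium for differentiation. Day 0 is the day after transfection, before the move to differentiation medium, and the other libraries were taken at days 3 and 6. This gives 12 groups of 2 biological replicates, 24 libraries in all. C2C12 cells are 1 established line, and the sources do not say whether the PM replicates came from different animals. If they did not, the p-values measure only the spread between these samples, which may be technical.

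In the Hippo pathway, the kinases Mst2 and Mst1, encoded by Stk3 and Stk4, bind the scaffold Sav1 and phosphorylate the kinases Lats1 and Lats2. These in turn phosphorylate Yap and Taz, the cofactors through which Tead factors activate transcription, and thereby keep them out of the nucleus. Nf2 encodes merlin, a membrane-linked protein that acts upstream by bringing Lats kinases to the membrane. The Rassf1 to Rassf6 proteins carry a SARAH domain, the short helix through which they bind Mst kinases and Sav1, and several also bind Ras-type GTPases. In muscle, Tead factors bind the MCAT element of many contractile genes.

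Rassf2, Rassf5 and Rassf4 varied most among the 10 genes over the 12 groups, so the RefSeq sequences around their starts are given first (250 bases before to 50 after the start, GRCm38.p6, written along the gene). This build differs from that of the counts. Capitals mark the MCAT core CATTCC or its reverse complement GGAATG, and the E-box CANNTG, which is the same on both strands and is bound by Myod1 and Myog.
Rassf2, chr2:132030275-132030574, minus strand: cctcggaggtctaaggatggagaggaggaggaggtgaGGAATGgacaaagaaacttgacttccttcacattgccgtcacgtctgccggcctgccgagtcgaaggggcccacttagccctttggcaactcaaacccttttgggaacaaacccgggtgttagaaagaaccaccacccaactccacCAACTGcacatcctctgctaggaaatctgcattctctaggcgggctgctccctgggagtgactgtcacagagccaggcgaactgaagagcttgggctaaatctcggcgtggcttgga
Rassf5, chr1:131200136-131200435, minus strand: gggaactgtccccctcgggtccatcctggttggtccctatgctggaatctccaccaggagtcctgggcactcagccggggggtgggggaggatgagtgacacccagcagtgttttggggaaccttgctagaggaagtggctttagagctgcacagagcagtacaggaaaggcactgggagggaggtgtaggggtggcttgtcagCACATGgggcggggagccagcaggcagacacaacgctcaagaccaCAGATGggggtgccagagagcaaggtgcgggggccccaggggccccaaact
Rassf4, chr6:116673787-116674086, minus strand: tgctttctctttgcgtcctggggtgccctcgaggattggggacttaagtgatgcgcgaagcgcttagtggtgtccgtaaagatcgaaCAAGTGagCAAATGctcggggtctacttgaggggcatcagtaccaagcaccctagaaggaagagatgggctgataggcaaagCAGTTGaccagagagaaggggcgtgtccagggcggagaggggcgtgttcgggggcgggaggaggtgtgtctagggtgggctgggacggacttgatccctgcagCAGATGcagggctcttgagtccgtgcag

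The Rassf2 window held 1 MCAT core and 1 E-box, the Rassf5 window 2 E-boxes and no MCAT core, and the Rassf4 window 4 E-boxes and no MCAT core. Of 32851 windows of this length in the RefSeq table, 14.7% held an MCAT core and 72.3% an E-box, so single matches are common. Windows were given for 9 of the 10 genes, in 12 starts, and 3 of these starts held an MCAT core: Rassf2, Sav1 and 1 of the Lats2 starts. The table gave no window for Stk3. A match describes the letters only.

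Depth was similar across the series: 25453830 to 52784510 reads were counted on genes in the C2C12 libraries and 32571583 to 51110723 in the PM libraries. Replicates of a group correlated at Pearson's r of 0.981 to 0.993 over genes, and log2 levels differed between replicates with an SD over genes of 0.629 to 0.737 in the 3 siTead1/4 groups of C2C12 cells, against 0.417 to 0.57 in the other 9 groups. The 7 muscle markers summed to 961 and 1090 CPM (counts scaled to library size) in C2C12 siControl cells at day 0, but already to 9650 and 10300 CPM in PM siControl cells at day 0. Ptprc, the pan-leukocyte marker, had at most 3 counts in any library. Both silenced genes had lower means with siTead1/4 in each comparison. In PMs Tead4 fell to 0.194, 0.167 and 0.298 times its siControl level at days 0, 3 and 6 (adjusted p = 0.000262, 9.25e-05 and 0.00199, edgeR), and Tead1 to 0.368 and 0.312 times at days 0 and 3 (adjusted p = 0.0211 and 0.0107), with 0.467 times at day 6 (adjusted p = 0.143). In C2C12 cells Tead4 fell to 0.216 and 0.295 times at days 0 and 3 (adjusted p = 0.036 and 0.0425) and stood at 0.412 times at day 6 (adjusted p = 0.318). Tead1 stood at 0.182, 0.470 and 0.698 times, and none of the 3 differences passed (adjusted p = 0.168, 0.501 and 0.945). At day 0 Tead1 was at 28.9 CPM in one C2C12 siTead1/4 library and 4.50 CPM in the other.

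By group means per kb of the gene length in the table, Sav1 and Nf2 were the first and second of the 10 genes in each of the 12 groups. Rassf2, Rassf4 and Rassf5 were the last 3. Single libraries overlapped in places. With siTead1/4 in C2C12 cells, Nf2 (15.9 and 24.5 CPM per kb) overlapped Lats1 (11.2 and 18.4) at day 0. At day 3 Rassf5 (5.54 and 12.5) overlapped Stk4 (9.46 and 10.4). In C2C12 siControl cells at day 0 the order began with Sav1 at 40.7 ± 4.02 CPM per kb (SD, n = 2), followed by Nf2 at 20.8 ± 0.266, Stk3 at 20.5 ± 0.0478, Lats1 at 19.5 ± 5.88, Rassf1 at 15.1 ± 2.60, Lats2 at 10.8 ± 1.81 and Stk4 at 9.36 ± 1.15. The libraries of Stk3 overlapped those of Lats1, those of Lats1 overlapped those of Rassf1, and those of Lats2 overlapped those of Stk4. Rassf5 at 2.11 ± 0.0162, Rassf2 at 0.402 ± 0.0276 and Rassf4 at 0.241 ± 0.0235 CPM per kb closed the order without overlap. In PM siControl cells at day 0 Sav1 at 30.8 ± 0.0456 and Nf2 at 21.1 ± 2.15 CPM per kb led the order, and Rassf5 at 0.503 ± 0.0465, Rassf4 at 0.255 ± 0.0218 and Rassf2 at 0.122 ± 0.0245 were last. The table's lengths fall short of the merged exons for Stk3, Nf2, Rassf1 and Rassf2, and most so for Rassf1 (2206 against 5425 bases), so the per kb levels of these genes may be too high.

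The Rassf genes of low level also had the widest spread over the 12 groups. Between the lowest and the highest group mean, Rassf2 differed 31.8-fold, Rassf5 20.3-fold, Rassf4 5.03-fold and Stk3 3.68-fold. Lats1 followed with 2.71-fold, Rassf1 with 2.31-fold and Lats2 with 2.08-fold, while Sav1, Nf2 and Stk4 stayed at 1.51, 1.49 and 1.35-fold. Stk4 and Nf2 passed the test in none of the 20 comparisons made (edgeR and DESeq2 alike, lowest edgeR adjusted p = 0.201 and 0.406), and neither reached an unadjusted p under 0.05 in any of them. Their log2 fold changes ran from -0.26 to 0.22 for Stk4, the gene of Mst1, and from -0.34 to 0.22 for Nf2. A missed threshold does not show equal levels. The counts behind the low genes were 43 to 1548 reads per library for Rassf2, 64 to 2079 for Rassf5 and 27 to 234 for Rassf4. Because the libraries hold RNA of many cells, fewer cells that express a gene cannot be told apart from less RNA per cell.

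**Figure D1:**
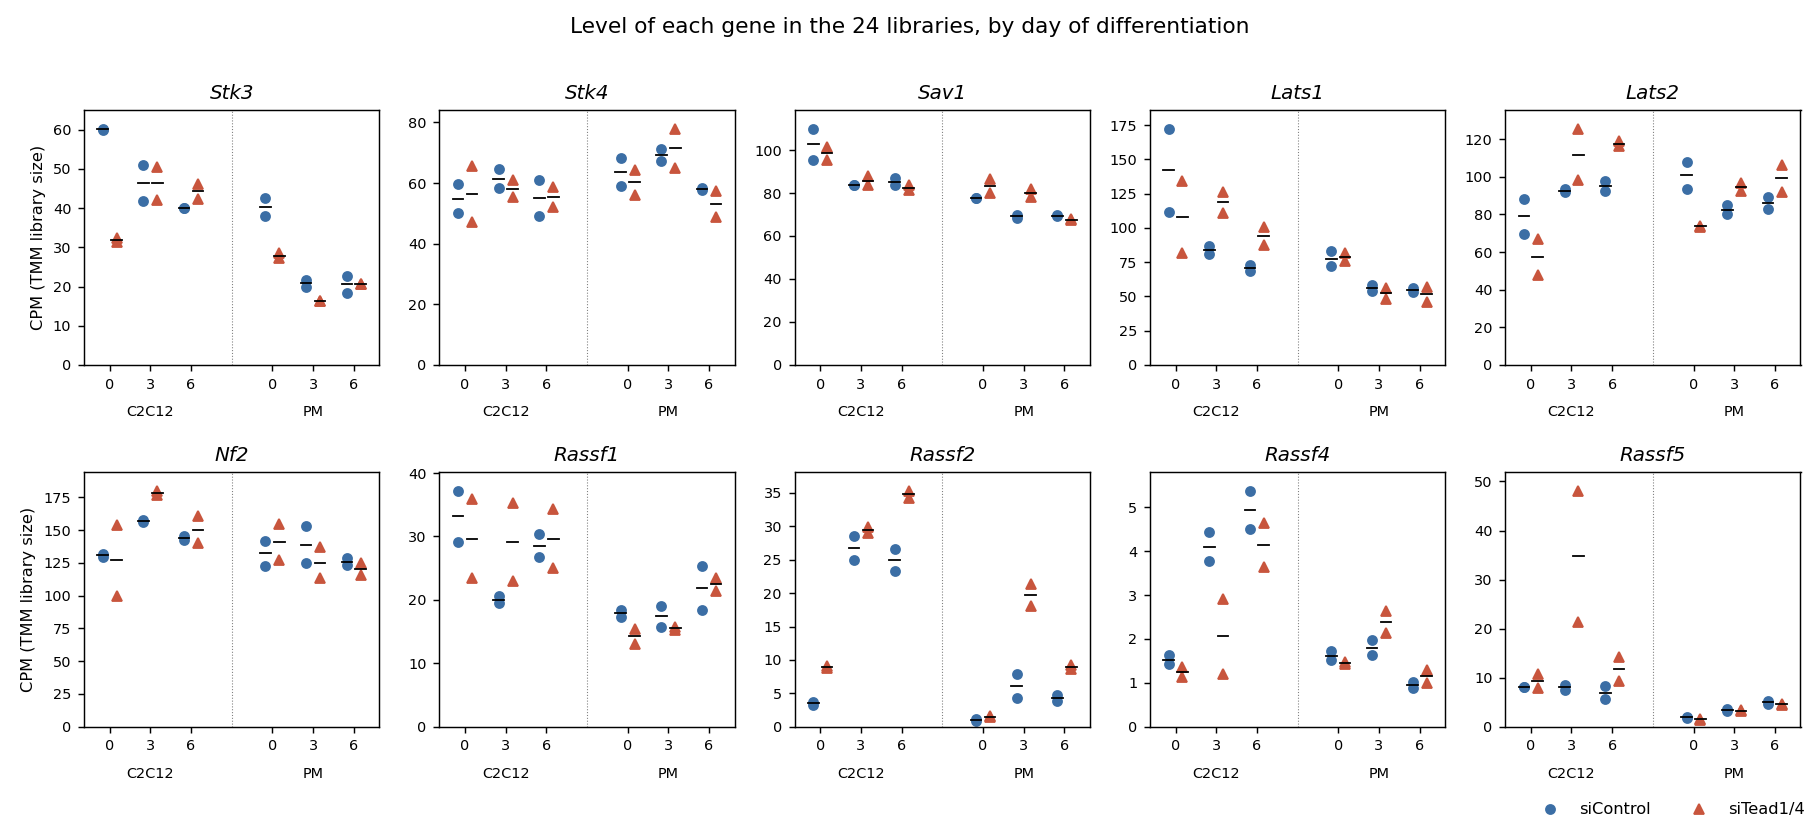
Level of each gene in CPM (vertical axis, linear, from 0) in each of the 24 libraries, by cell type and day (horizontal axis), with circles for siControl, triangles for siTead1/4 and a black bar at the mean of 2 replicates. Rassf2 and Rassf5 reached their highest levels, 35.4 and 48.1 CPM, in C2C12 siTead1/4 libraries, and Stk4 stayed between 47.3 and 77.9 CPM throughout.

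Differentiation of siControl cells was compared first, since these cells are the reference for silencing at each day. A gene passed at an edgeR quasi-likelihood p under 0.05 after Benjamini-Hochberg adjustment over all tested genes, and was called when it also changed more than 2-fold. Rassf2 rose and was called in both cell types at both days, Stk3 was called lower in PMs at both days and Lats1 in C2C12 cells at day 6. In C2C12 cells 2 of the 10 genes were called at day 3 and 3 at day 6, beside 28.7% and 31.1% of all tested genes, and 3 and 4 passed at any fold, beside 39.6% and 43% of all. In PMs 2 were called at day 3 and 3 at day 6, beside 32.3% and 35.5% of all tested genes, and 6 and 7 passed at any fold, beside 58.8% and 61.4% of all. The shares among the 10 genes were thus not far from those of the whole table. Over all tested genes the median log2 fold change lay between -0.01 and 0.03 in these 4 comparisons, and over the 10 genes between -0.21 and 0.03.

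Rassf2, a scaffold that binds Mst kinases, went from 3.32 and 3.66 CPM at day 0 in C2C12 siControl cells to 24.9 and 28.6 CPM at day 3 and 26.6 and 23.3 CPM at day 6. In PM siControl cells it went from 0.911 and 1.21 CPM to 4.32 and 7.96 CPM at day 3 and 3.88 and 4.79 CPM at day 6. All later libraries lay above all day 0 libraries of their cell type. The log2 fold changes were 2.90 ± 0.19 (SE) and 2.80 ± 0.18 in C2C12 cells (adjusted p = 4.54e-06 and 4.04e-06) and 2.49 ± 0.29 and 1.97 ± 0.30 in PMs (adjusted p = 3.98e-05 and 0.000197). These 4 calls were made in each of 10 fits, the one reported and 9 alternatives.

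Rassf4 and Rassf5, scaffolds of the same family, moved differently in the 2 cell types. The day 0 cells that these changes start from were unlike. The 7 muscle markers summed to 9650 and 10300 CPM in PM siControl cells and to 961 and 1090 CPM in C2C12 siControl cells. The part of this in the differing changes was not tested. Rassf4 went from 1.63 and 1.42 CPM to 3.78 and 4.43 CPM at day 3 and 4.51 and 5.38 CPM at day 6 in C2C12 cells, without overlap with day 0. It rose by 1.39 ± 0.39 and 1.66 ± 0.40 on the log2 scale (adjusted p = 0.0181 and 0.00735). In PMs its libraries were at 1.72 and 1.52 CPM at day 0, 1.63 and 1.97 CPM at day 3 and 0.873 and 1.01 CPM at day 6, and it fell by 0.85 ± 0.26 at day 6 (adjusted p = 0.0163). The PM change without siControl replicate 1 or 2 was -0.64 and -1.05 (adjusted p = 0.241 and 0.0766). The day 6 change in PMs minus that in C2C12 cells was -2.48 ± 0.47 for Rassf4 (adjusted p = 0.00146).

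Rassf5, which encodes a scaffold also known as Nore1 and Rapl, was at 8.05 and 8.14 CPM at day 0, 8.54 and 7.47 CPM at day 3 and 8.31 and 5.58 CPM at day 6 in C2C12 siControl cells. The groups overlapped and its log2 fold changes were -0.06 ± 0.37 and -0.25 ± 0.37 (adjusted p = 0.919 and 0.613). In PMs it went from 2.06 and 1.803 CPM at day 0 to 3.68 and 3.24 CPM at day 3 and 5.34 and 4.57 CPM at day 6. Here no library of a later day overlapped with day 0, and Rassf5 rose by 0.78 ± 0.20 and 1.29 ± 0.20 on the log2 scale (adjusted p = 0.00697 and 0.000276). The day 6 rise was called in all 10 fits, while the day 3 rise had an adjusted p of 0.0836 and 0.0772 without siControl replicate 1 or 2. The day 6 change in PMs minus that in C2C12 cells was 1.57 ± 0.45 (adjusted p = 0.0239).

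These 2 genes account for both calls in the test of the difference at day 6, beside 12.7% of all tested genes. At day 3 none of the 10 genes was called (edgeR), beside 11.2% of all, with 3 at an unadjusted p under 0.05 (Lats2, Rassf4 and Stk3), and DESeq2 called none and passed Stk3. Without siControl replicate 1 or 2 the C2C12 rises of Rassf4 no longer passed (adjusted p = 0.188 and 0.34 at day 3, 0.131 and 0.215 at day 6), and neither did the day 6 differences between cell types (adjusted p = 0.158 and 0.166 for Rassf4, 0.267 and 0.489 for Rassf5). In all of these fits the direction was kept. In PM siControl cells the 6 fibroblast markers summed to 67.6 and 97.7 CPM at day 0 and to 1900 and 3000 CPM at day 6. In C2C12 siControl cells the sums were 54.5 and 61.1 CPM at day 0 and 233 and 378 CPM at day 6. Col1a1 alone ranged from 47.3 to 2840 CPM over the PM libraries, while Tcf21 had no counts. The other markers also rose in PMs by day 6 on the log2 scale: Dcn by 4.905, Lum by 3.517, Thy1 by 2.005 and Pdgfra by 0.985 (edgeR adjusted p = 6.04e-06, 0.000188, 4.62e-05 and 0.0168). In C2C12 cells Dcn, Lum and Col1a1 rose by 7.098, 6.974 and 1.852 (adjusted p = 0.00019, 0.0319 and 0.0231). Pdgfra did not pass there (adjusted p = 0.683), and Thy1 had at most 2 counts in any C2C12 library. The part of these markers in the PM changes was not tested.

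Of the core kinases, Stk3 and Lats1 fell in both cell types. Stk3 went from 42.6 and 38.1 CPM at day 0 to 19.9 and 21.8 CPM at day 3 and 22.8 and 18.2 CPM at day 6 in PM siControl cells, with no overlap. It fell by 1.01 ± 0.12 and 1.04 ± 0.12 on the log2 scale (adjusted p = 5.04e-05 and 3.66e-05) and passed in all 10 fits at both days. Its size lies at the 2-fold threshold: without siControl replicate 1 the day 3 change was -0.86, and without siControl replicate 2 the day 6 change was -0.98. In C2C12 siControl cells Stk3 went from 60.0 and 60.2 CPM to 50.9 and 41.8 CPM at day 3 and 40.0 and 40.0 CPM at day 6, and fell by 0.63 ± 0.17 at day 6 (adjusted p = 0.0139). This C2C12 change, without siControl replicate 1 or 2, was -0.62 and -0.61 (adjusted p = 0.289 and 0.28). The difference between the cell types did not pass for Stk3 at either day (adjusted p = 0.0613 and 0.228).

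Lats1 was at 112 and 172 CPM at day 0 in C2C12 siControl cells, the former in replicate 1 and the latter in replicate 2, and at 80.9 and 87.2 CPM at day 3 and 68.2 and 72.8 CPM at day 6. It fell by 0.80 ± 0.26 and 1.05 ± 0.26 on the log2 scale (adjusted p = 0.0326 and 0.00871). Without siControl replicate 2 the day 6 change was -0.74 (adjusted p = 0.284) and without siControl replicate 1 it was -1.28 (adjusted p = 0.0951), and at day 3 the changes were -0.50 and -1.01 (adjusted p = 0.495 and 0.172). In PMs Lats1 went from 72.3 and 83.0 CPM to 53.8 and 58.1 CPM and to 56.3 and 53.0 CPM, and fell by 0.53 ± 0.13 and 0.57 ± 0.13 (adjusted p = 0.00498 and 0.00288). Without siControl replicate 2 the PM changes did not pass (adjusted p = 0.0914 and 0.118), and without siControl replicate 1 that of day 3 did not (adjusted p = 0.06).

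Lats2 and Sav1 also fell in PMs, by less. Lats2 fell by 0.34 ± 0.11 and 0.30 ± 0.11 on the log2 scale at days 3 and 6 (adjusted p = 0.0171 and 0.0323) and Sav1 by 0.23 ± 0.08 at both days (adjusted p = 0.0398 and 0.0349). In C2C12 cells Lats2 changed by 0.19 ± 0.21 and 0.23 ± 0.21 (adjusted p = 0.491 and 0.398). For Sav1 the changes there were -0.33 ± 0.15 and -0.31 ± 0.15 (adjusted p = 0.101 and 0.121). Sav1 passed in 4 of the 10 fits at each day, and Lats2 in 8 and 5. Without siControl replicate 1 or 2 the adjusted p of Sav1 was 0.323 and 0.236 at day 3 and 0.265 and 0.249 at day 6, and that of Lats2 was 0.0905 and 0.198 at day 3 and 0.135 and 0.24 at day 6. Rassf1, a tumour suppressor and binder of Mst kinases, passed at neither day in either cell type, and its largest difference was -0.77 ± 0.28 in C2C12 cells at day 3 (adjusted p = 0.052). Between days 3 and 6 none of the 10 genes passed in either cell type (edgeR), beside 0% of all tested genes called in C2C12 cells and 2.8% in PMs. At an unadjusted p under 0.05 there were 0 of the 10 in C2C12 cells and 2 in PMs, Rassf4 and Rassf5, and DESeq2 called none. Over all genes of the C2C12 comparison 406 had an unadjusted p under 0.05, and DESeq2 called 19.

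**Figure D2:**
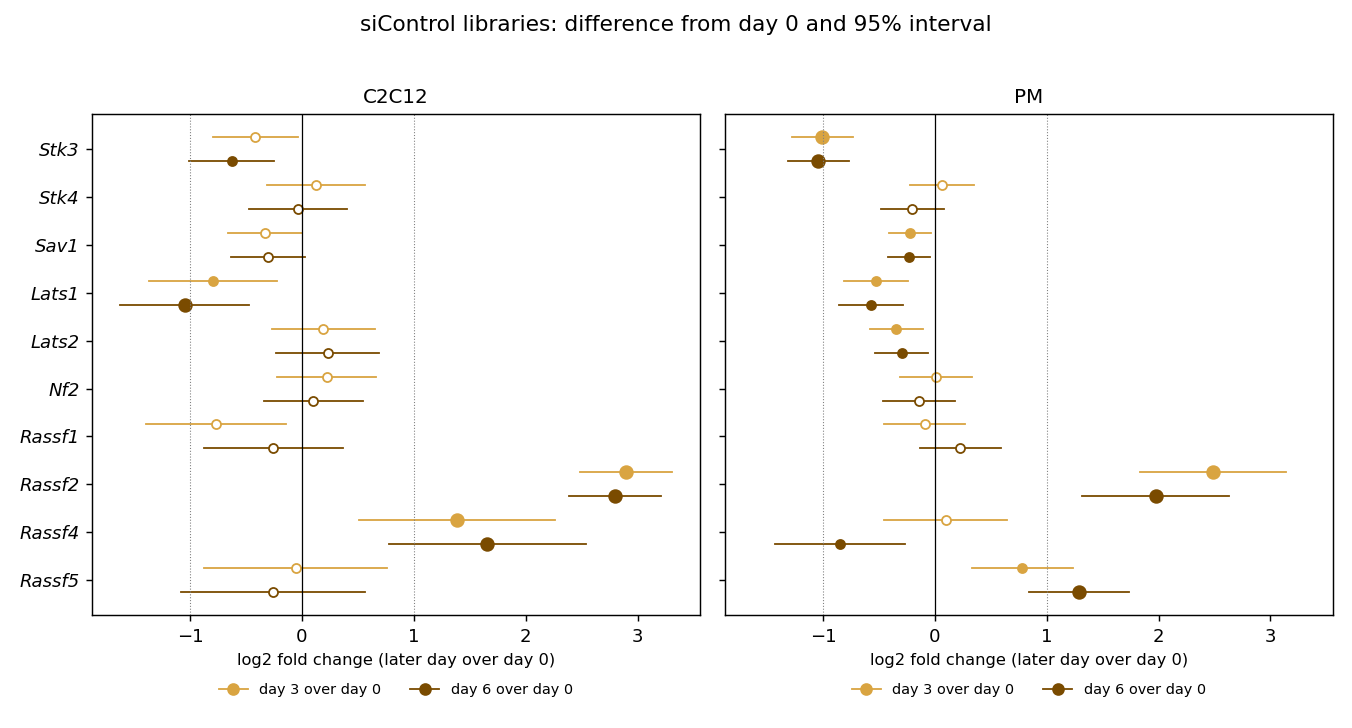
Log2 fold change of each gene in siControl cells at day 3 (light) and day 6 (dark) over day 0, in C2C12 cells (left) and PMs (right), with bars for the 95% interval. Large filled points were called, small filled points passed the test at less than 2-fold, open points did not pass, and dotted lines mark a 2-fold change. Rassf2 lies far to the right in both cell types, with 2.90 and 2.80 in C2C12 cells and 2.49 and 1.97 in PMs.

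The makeup of the 2 paralogue pairs is given as shares of the summed CPM per kb. Stk3 made up 70.5% and 66.9% of the Stk3 and Stk4 sum in C2C12 siControl cells at day 0 and 62.0% and 56.7% at day 6. In PM siControl cells it made up 55.5% and 56.3% at day 0 and 43.8% and 38.7% at day 6. Lats2 made up 38.4% and 33.9% of the Lats1 and Lats2 sum in C2C12 siControl cells at day 0 and 57.5% and 57.3% at day 6, against 56.5% and 56.5% at day 0 and 59.5% and 62.7% at day 6 in PMs. These shares are descriptions with no test of their own. They rest on the same counts as the changes above, and the level of Stk3 depends on a table length that is shorter than its merged exons (2935 against 3237 bases).

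**Figure D3:**
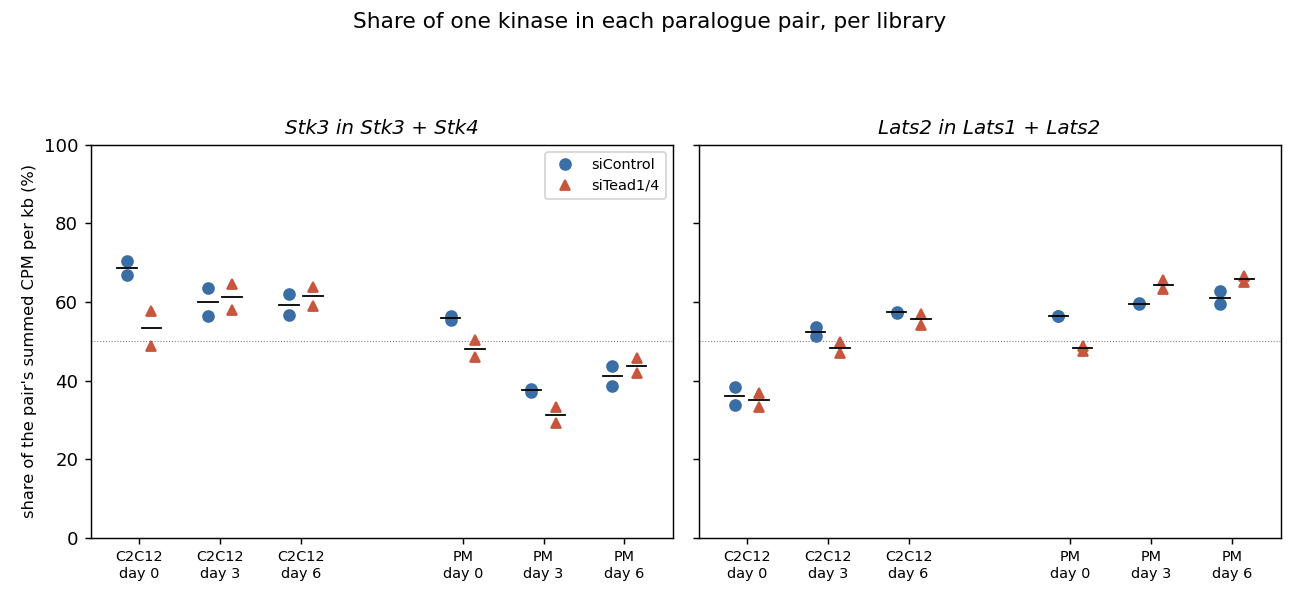
Share of Stk3 in the sum of Stk3 and Stk4 (left) and of Lats2 in the sum of Lats1 and Lats2 (right), in percent of the CPM per kb, in each library by cell type and day, with circles for siControl, triangles for siTead1/4, a black bar at the mean of 2 replicates and a dotted line at an equal share. The lowest Stk3 share, 29.3%, was in a PM siTead1/4 library at day 3, and the lowest Lats2 share, 33.2%, in a C2C12 siTead1/4 library at day 0.

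To ask whether Tead1 and Tead4 affect the pathway genes upstream of them, siTead1/4 cells were compared with siControl cells of the same day. Rassf2 was called higher in C2C12 cells at day 0 and in PMs at day 3, and Rassf5 in C2C12 cells at day 3. No core gene was called. In C2C12 cells 1 of the 10 genes was called at day 0, beside 0.438% of all tested genes, 1 at day 3, beside 1.27%, and 0 at day 6, beside 0.0457%. In PMs 0 were called at day 0, beside 2.6% of all tested genes, 1 at day 3, beside 3.3%, and 0 at day 6, beside 0.743%. At any fold 2 of the 10 passed in PMs at day 0, beside 7.72% of all. In the comparisons with no call, DESeq2 called none in C2C12 cells at day 6 or in PMs at day 0 and called Rassf2 in PMs at day 6, and the genes at an unadjusted p under 0.05 were 1 in C2C12 cells at day 6 (Rassf2), 2 in PMs at day 0 (Stk3 and Lats2) and 1 in PMs at day 6 (Rassf2). The siControl libraries are shared with the comparisons of days.

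In C2C12 cells at day 0, Rassf2 was at 9.12 and 8.74 CPM with siTead1/4 against 3.32 and 3.66 CPM with siControl, with both silenced libraries above both controls. It rose by 1.35 ± 0.18 on the log2 scale (adjusted p = 0.0199). At day 3 the libraries were at 29.0 and 30.0 CPM against 24.9 and 28.6 CPM, and at day 6 at 35.4 and 34.3 CPM against 26.6 and 23.3 CPM. The silenced libraries were again the higher ones, but the log2 fold changes of 0.11 ± 0.17 and 0.49 ± 0.17 did not pass (adjusted p = 0.854 and 0.534). Without siControl replicate 1 or 2 the day 0 change was 1.28 and 1.42. It was called in 7 of the 10 fits. It was missed without either siControl replicate and with only the compared libraries in the fit (adjusted p = 0.228).

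In PMs the rise was called at day 3. With siTead1/4, Rassf2 was at 1.46 and 1.56 CPM at day 0 against 0.911 and 1.21 CPM with siControl, and the change of 0.51 ± 0.30 did not pass (adjusted p = 0.352). At day 3 it was at 18.1 and 21.3 CPM against 4.32 and 7.96 CPM, and rose by 1.67 ± 0.26 (adjusted p = 0.00472). At day 6 it was at 9.18 and 8.68 CPM against 3.88 and 4.79 CPM, a change of 1.04 ± 0.27 that did not pass (adjusted p = 0.104). The silenced libraries lay above the controls on each of the 3 days. Without siTead1/4 replicate 1 or 2 the day 3 change was 1.78 and 1.55 (adjusted p = 0.0557 and 0.0823), and without siControl replicate 1 or 2 it was 1.30 and 2.18 (adjusted p = 0.0372 and 0.00664). At day 6 DESeq2 gave 1.04 with an adjusted p of 0.0145 and edgeR with the replicate number as a block gave 1.06 with an adjusted p of 0.0202, in a range of 0.00695 to 0.477 over the 10 fits.

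At day 3 the siTead1/4 effect on Rassf2 in PMs minus that in C2C12 cells was 1.54 ± 0.31 (adjusted p = 0.0186). Rassf5 showed the opposite difference of -2.20 ± 0.44 (adjusted p = 0.0198). These were 2 calls among the 10 genes, beside 1.25% of all tested genes. Without siControl replicate 1 or 2 neither passed, at adjusted p of 0.267 and 0.0977 for Rassf2 and 0.417 and 0.411 for Rassf5. Without siTead1/4 replicate 1 or 2 the difference was 1.63 and 1.45 for Rassf2 (adjusted p = 0.0614 and 0.15), and without siTead1/4 replicate 2 it was -1.51 for Rassf5 (adjusted p = 0.0842). With only the compared libraries the adjusted p was 0.122 for Rassf2 and 0.102 for Rassf5. At days 0 and 6 none of the 10 differences passed (edgeR and DESeq2), beside 0.00591% and 0.0354% of all tested genes, with 1 at day 0 (Rassf2) and 0 at day 6 at an unadjusted p under 0.05.

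Rassf5 in C2C12 cells at day 3 was at 21.3 and 48.1 CPM with siTead1/4, in replicates 1 and 2, against 8.54 and 7.47 CPM with siControl. Both silenced libraries were above both controls, but they differed more from each other than the controls did. Rassf5 rose by 2.08 ± 0.38 on the log2 scale (adjusted p = 0.0332). Without siTead1/4 replicate 2 the change was 1.40 (adjusted p = 0.0434), and without siControl replicate 1 or 2 it was 2.17 and 2.01 (adjusted p = 0.388 and 0.506). Over the 10 fits it was called in 7, with adjusted p from 2.38e-09 to 0.506, and with only the compared libraries the adjusted p was 0.106. In the other C2C12 comparisons Rassf5 changed by 0.21 ± 0.37 at day 0 and 0.75 ± 0.37 at day 6 (adjusted p = 0.918 and 0.774).

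In PMs Rassf5 was at 1.67 and 1.40 CPM at day 0 against 2.06 and 1.803 CPM, a change of -0.34 ± 0.21 (adjusted p = 0.359). The PM groups overlapped at days 3 and 6, with 3.22 and 3.31 CPM against 3.68 and 3.24 CPM and with 4.65 and 4.47 CPM against 5.34 and 4.57 CPM. Of the exonic bases of Rassf5, 78 are shared with Eif2d on the opposite strand, and the kit does not keep the strand. In the C2C12 siTead1/4 libraries of day 3 the 7 muscle markers summed to 5930 and 7850 CPM against 15200 and 17600 CPM in siControl, and their part in the change of Rassf5 was not tested. The 7 macrophage markers summed there to 1.14 and 1.39 CPM against 2.17 and 2.31 CPM in siControl, and Ptprc was at most 1 count in any C2C12 library.

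Rassf4 was low and did not pass on silencing. In C2C12 cells at day 3 it was at 2.91 and 1.204 CPM in siTead1/4 replicates 1 and 2 against 3.78 and 4.43 CPM, a change of -1.02 ± 0.39 (adjusted p = 0.258), and without siTead1/4 replicate 1 the change was -1.76 (adjusted p = 0.0246, in a range up to 1 over the 10 fits). In PMs at day 3 it was at 2.64 and 2.14 CPM against 1.63 and 1.97 CPM, a change of 0.40 ± 0.24 (adjusted p = 0.374). Rassf1 did not pass in any of the 6 comparisons, with log2 fold changes from -0.34 to 0.51.

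Among the core genes, Stk3 and Lats2 were lower with siTead1/4 at day 0. Stk3, the gene of Mst2, was at 31.3 and 32.4 CPM with siTead1/4 in C2C12 cells against 60.0 and 60.2 CPM with siControl. In PMs it was at 27.3 and 28.5 CPM against 42.6 and 38.1 CPM. The groups did not overlap in either cell type. In PMs Stk3 fell by 0.54 ± 0.12 on the log2 scale (adjusted p = 0.0248), whereas the C2C12 change of -0.92 ± 0.17 missed the threshold (adjusted p = 0.0513, with a range of 0.000285 to 0.91 over the 10 fits). DESeq2 passed it. The difference between the cell types was 0.38 ± 0.20 (adjusted p = 1). At day 3 the changes were -0.03 ± 0.17 in C2C12 cells and -0.37 ± 0.12 in PMs, and at day 6 they were 0.15 ± 0.17 and 0.00 ± 0.12, and none passed.

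Lats2, a kinase of Yap and Taz, was at 73.1 and 74.1 CPM with siTead1/4 in PMs at day 0 against 93.7 and 107.9 CPM, and fell by 0.46 ± 0.11 on the log2 scale (adjusted p = 0.0269). In C2C12 cells at day 0 it was at 66.9 and 47.6 CPM against 69.6 and 88.3 CPM, a change of -0.47 ± 0.21 (adjusted p = 0.47). At the later days every siTead1/4 mean of Lats2 lay above its siControl mean, by 0.19 to 0.31 on the log2 scale, and none of these 4 differences passed. The PM falls of Stk3 and Lats2 passed in 6 of the 10 fits each and in none of the 4 that left out a replicate. There the adjusted p ran from 0.075 to 0.231 for Stk3 and from 0.123 to 0.239 for Lats2. Of the exonic bases of Lats2, 332 are shared with Xpo4 on the same strand. Lats1 differed by -0.40 to 0.47 and Sav1 by -0.06 to 0.20 over the 6 comparisons, and neither passed in any of them.

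**Figure D4:**
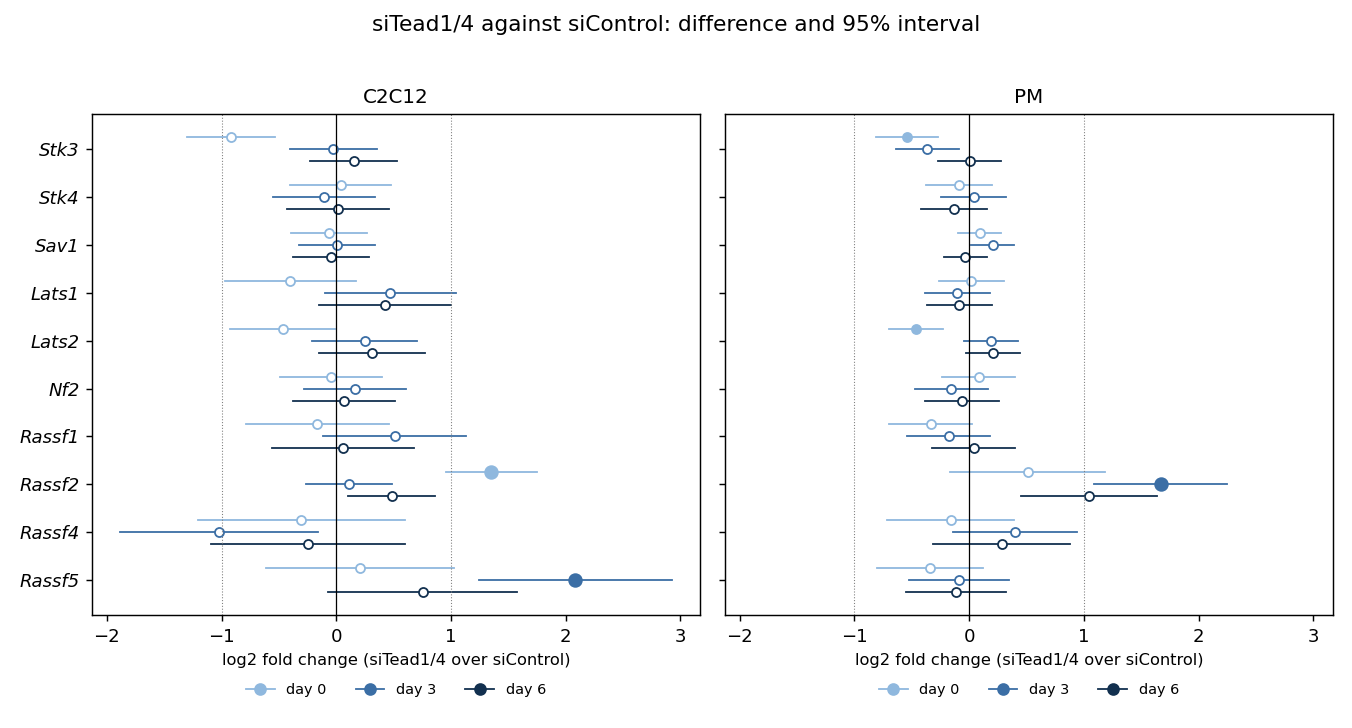
Log2 fold change of each gene with siTead1/4 over siControl at days 0, 3 and 6 (light to dark) in C2C12 cells (left) and PMs (right), with bars for the 95% interval. Large filled points were called, small filled points passed at less than 2-fold, open points did not pass, and dotted lines mark a 2-fold change. The 3 large points are Rassf2 at 1.35 in C2C12 cells at day 0 and 1.67 in PMs at day 3, and Rassf5 at 2.08 in C2C12 cells at day 3.

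The cell types themselves were compared in siControl libraries. All members that passed were lower in PMs. At day 0, 2 of the 10 genes were called, beside 26.8% of all tested genes, and 6 passed at any fold, beside 40.1%. At day 3, 4 were called, beside 29.8%, and 6 passed, beside 45.8%, and at day 6, 2 were called, beside 24.9%, and 4 passed, beside 38%. Cell type, strain and culture history cannot be told apart in this comparison. At day 0 the 7 muscle markers summed to 9650 and 10300 CPM in PMs and to 961 and 1090 CPM in C2C12 cells, and their part in these differences was not tested.

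Rassf2 was lower in PMs by 1.73 ± 0.25, 2.12 ± 0.22 and 2.52 ± 0.23 on the log2 scale at days 0, 3 and 6 (adjusted p = 2.87e-05, 1.35e-06 and 3.27e-07) and was called in all 10 fits at each day. Rassf5 was lower by 2.06 ± 0.33 at day 0 and 1.21 ± 0.31 at day 3 (adjusted p = 7.98e-05 and 0.0047), and at day 6 the difference of -0.49 ± 0.31 did not pass (adjusted p = 0.228). Rassf4 did not differ detectably at day 0 (0.09 ± 0.33, adjusted p = 0.857) and was lower in PMs by 1.19 ± 0.32 at day 3 and 2.39 ± 0.34 at day 6 (adjusted p = 0.00611 and 4.22e-05). The library values are those given above. Without siControl replicate 1 or 2 the day 3 differences of Rassf4 (adjusted p = 0.181 and 0.143) and Rassf5 (adjusted p = 0.141 and 0.112) did not pass.

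Of the core genes, Stk3 was lower in PMs by 0.58 ± 0.14, 1.15 ± 0.14 and 0.96 ± 0.14 at days 0, 3 and 6 (adjusted p = 0.00299, 5.95e-06 and 4.85e-05). It was called at day 3 and, without siControl replicate 1, had a difference of -0.94 there and of -1.14 at day 6, and without siControl replicate 1 or 2 the day 0 difference had an adjusted p of 0.0643 and 0.135. Sav1 was lower by 0.40, 0.28 and 0.30 (SE 0.10 each, adjusted p = 0.00521, 0.0372 and 0.0331), and did not pass without siControl replicate 1 (adjusted p = 0.117, 0.422 and 0.312) or 2 (0.306, 0.281 and 0.367). Lats1 was lower by 0.87 ± 0.21 and 0.59 ± 0.21 at days 0 and 3 (adjusted p = 0.00355 and 0.0332), and the difference of -1.06 without siControl replicate 1 at day 0 passed 2-fold (adjusted p = 0.0487). Without siControl replicate 2 the day 0 difference of Lats1 was -0.67 (adjusted p = 0.204), and the day 3 difference had an adjusted p of 0.26 and 0.206 without siControl replicate 1 or 2. Rassf1 was lower by 0.89 ± 0.24 at day 0 (adjusted p = 0.00649), and by 0.67 and 1.14 without siControl replicate 1 or 2 (adjusted p = 0.281 and 0.067). GENCODE vM1 places 2432 of the 5425 merged exonic bases of Rassf1 under the exons of Gm9917 on the opposite strand. Reads there cannot be assigned to either gene without strand. The count table gives Rassf1 a length of only 2206 bases, so how much of this overlap applies to the counts is not known.

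Other genes of the pathway were read from lists, to be set against the calls over all tested genes with siTead1/4, which were 0.438% in C2C12 cells at day 0 and 2.6%, 3.3% and 0.743% in PMs at days 0, 3 and 6. Of 14 Mob and kinase relatives, which include the Lats activator Mob1b and the Map4k and Tao kinases, 1 was called lower with siTead1/4 in C2C12 cells at day 0 (Mob1b, -1.14 ± 0.19, adjusted p = 0.0339) and 1 in PMs at day 0 (Map4k4, -1.01 ± 0.11, adjusted p = 0.00137). In PMs at day 3, 1 was called higher (Tnik, 1.07 ± 0.17, adjusted p = 0.0055). Of 11 tested STRIPAK genes, whose phosphatase complex inactivates Mst kinases, Mob4 was the 1 called at day 0 in each cell type, lower by 1.50 ± 0.25 in C2C12 cells and 1.12 ± 0.12 in PMs (adjusted p = 0.0369 and 0.00133).

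Of 12 Nf2 partners and adaptors, 3 were called in PMs at day 3, beside 3.3% of all tested genes, and 3 at day 6, beside 0.743%. Dchs1, a protocadherin of the Fat pathway, fell by 1.77 ± 0.23 and 2.01 ± 0.24 (adjusted p = 0.00179 and 0.00428), and Wwc1, the scaffold Kibra, by 1.49 ± 0.18 and 1.09 ± 0.18 (adjusted p = 0.00137 and 0.0209). Jub (Ajuba), an inhibitor of Lats kinases, rose by 1.13 ± 0.17 and 1.03 ± 0.17 (adjusted p = 0.00387 and 0.0214). Of 5 tested cofactors of Tead, Wwtr1, the gene of Taz, fell by 1.01 ± 0.17 in C2C12 cells at day 0 (adjusted p = 0.0399), and Vgll2 rose by 1.11 ± 0.19 in PMs at day 3 (adjusted p = 0.00698). Among the other Rassf genes Rassf7 fell by 1.35 ± 0.29 in PMs at day 0 (adjusted p = 0.0215), 1 of 5 tested.

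With differentiation of siControl cells, Tnik rose in both cell types, by 2.94 ± 0.42 in C2C12 cells and 1.66 ± 0.18 in PMs at day 3 (adjusted p = 0.000444 and 2.04e-05), and Map4k1 fell by 1.89 ± 0.53 and 1.61 ± 0.30 (adjusted p = 0.0177 and 0.00105). Mob1a fell by 1.27 ± 0.14 in PMs (adjusted p = 2.21e-05). Among the other Rassf genes, Rassf3 and Rassf7 rose at day 3 in both: Rassf3 by 2.73 ± 0.36 in C2C12 cells and 1.43 ± 0.14 in PMs (adjusted p = 0.00028 and 9.05e-06), and Rassf7 by 2.14 ± 0.30 and 1.30 ± 0.29 (adjusted p = 0.000407 and 0.00263). In all, 3 of 14 Mob and kinase relatives were called at day 3 in each cell type, beside 28.7% of all tested genes in C2C12 cells and 32.3% in PMs, the third in C2C12 cells being Taok1 with a rise of 1.02 ± 0.28 (adjusted p = 0.0144).

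Of the Nf2 partners 2 of 12 were called at day 3 in C2C12 cells and 4 of 12 in PMs, where the shares of all tested genes were again 28.7% and 32.3%. Amot, an angiomotin that binds Yap, rose by 1.09 ± 0.32 in C2C12 cells and 1.79 ± 0.23 in PMs (adjusted p = 0.0204 and 7.72e-05), and Amotl1 by 2.13 ± 0.19 in PMs (adjusted p = 6.16e-06). Wwc1 fell by 3.42 ± 0.37 in C2C12 cells (adjusted p = 8.56e-05). In PMs Ptpn14 fell by 1.29 ± 0.22 and Dchs1 by 2.69 ± 0.21 (adjusted p = 0.000468 and 2.6e-06). The 2 of 11 STRIPAK genes called in C2C12 cells were Sike1 and Stk25, higher by 1.38 ± 0.22 and 1.13 ± 0.18 (adjusted p = 0.000875 and 0.000901), while in PMs 8 of 11 passed, all at less than 2-fold, beside 58.8% of all tested genes that passed at any fold. Wwtr1 and Vgll3 were the 2 of 5 Tead cofactors called in C2C12 cells, beside 28.7% of all, and were higher by 1.26 ± 0.17 and 1.63 ± 0.21 (adjusted p = 0.000357 and 0.000284).

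The genes most like the 4 most variable members were found by Pearson's r of log2 CPM over the 24 libraries, given as a description, since the libraries share cell types and days. For Rassf2 these were Afap1l2 (r = 0.965), Prelp (0.934) and Napg (0.929). For Rassf5 they were Scpep1 (0.956), 1110018J18Rik (0.955) and Artn (0.954). For Rassf4 they were Sgtb (0.841), Pde4c (0.838) and Isx (0.817). Isx was at 0 CPM in every PM group and at 8.81 and 10.1 CPM in C2C12 siControl cells at days 3 and 6. Group means of Pde4c reached at most 1.48 CPM. For Stk3 they were Atpbd4 (0.973) and Sept10 (0.952), with Kctd10 next. Scpep1, like Rassf5, was highest in C2C12 siTead1/4 cells at day 3, at 349 ± 125 CPM (SD, n = 2) against 175 ± 2.65 in siControl cells of that day. Kctd10, like Stk3, was lower with siTead1/4 at day 0, at 59.1 ± 7.47 against 129 ± 7.26 CPM in C2C12 cells and 44.0 ± 0.966 against 83.8 ± 1.05 CPM in PMs.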

How the data were processed

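Messenger RNA-seq of 24 libraries was analysed. Per the labels and the study's methods, poly(A) RNA was made into libraries with a kit that does not mark strand. The labels' processing notes name CASAVA 1.8.2, TopHat2 2.0.10, Bowtie2 2.1.0, HTSeq 0.6.1, DESeq2 1.8.1 and the build mm9, and the annotation release is not given in the sources used here. The authors deposited raw read counts per gene, with normalized columns that were not used here. The 36 columns of 12 libraries that are not among the listed samples were not used.

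Counts were tested in R 4.3.3 with edgeR 4.0.16 (filterByExpr, TMM, glmQLFit and glmQLFTest), with 1 mean per group, on the 12 libraries of a cell type (15303 genes tested in C2C12 cells, 16144 in PMs) or on all 24 (16926 genes) for PM against C2C12 and for differences between cell types. P-values were adjusted over all tested genes with the Benjamini-Hochberg method. SE is the log2 fold change divided by the square root of the quasi-likelihood F, and 95% intervals use the t distribution of the fit. Levels are counts scaled by TMM library sizes (CPM) over 24 libraries, and a count of 3 was worth 0.0533 to 0.11 CPM. Alternatives were DESeq2 1.42.0, its size factors in edgeR, no filter on low counts, a replicate block, only the libraries compared, and leaving out replicate 1 or 2 of one siRNA at all 3 days. Scripts were tested on simulated data.

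Members and lists were chosen with earlier results of these data known. Genes named were all 10 members, Tead1 and Tead4, up to 4 called genes with the largest change per list and comparison, and the 3 genes most correlated with each of the 4 most variable members. From those lists only the siTead1/4 and day 3 calls are named. Scpep1 and Kctd10 were singled out after their values were seen. Stk26 and Vgll1 were not analysed here. Promoter sequences are from RefSeq (GRCm38.p6) and gene overlaps from GENCODE vM1 (NCBIM37).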

Additional observations from a re-analysis of the deposited data

Results flagged for a closer look

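The siTead1/4 effect differed between the cell types for Rassf2 and Rassf5 at day 3, by the test of the difference itself in all 24 libraries (edgeR quasi-likelihood test, Benjamini-Hochberg adjustment). For Rassf2 the effect in PMs minus that in C2C12 cells was 1.54 on the log2 scale (adjusted p = 0.0186), with all siTead1/4 means above siControl in both cell types. For Rassf5 it was -2.20 (adjusted p = 0.0198), and 1 C2C12 library at 48.1 CPM stood above its replicate at 21.3 CPM. As given above, neither difference passed without either siControl replicate or with only the compared libraries.

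The change of siControl cells from day 0 to day 6 differed between the cell types for Rassf4 and Rassf5. As given above, the cell types already differed at day 0 in their muscle markers, and the part of this was not tested. The change in PMs minus that in C2C12 cells was -2.48 for Rassf4 (adjusted p = 0.00146) and 1.57 for Rassf5 (adjusted p = 0.0239). Neither of these passed without either siControl replicate, with the direction kept. With 2 libraries per group, a single library far from the others could not be looked for by a rule.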

How the results depend on the processing

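The calls rest on 2 libraries per group and the spread shared among groups. With DESeq2, with no filter on low counts and with a replicate block, 1 gene (Rassf2) was called in PMs at day 6 with siTead1/4, against 0 in the fit reported. With no filter and with only the compared libraries, 1 gene was called in PMs from day 0 to day 3, where Stk3 lay at the 2-fold limit. With only the compared libraries, 0 genes were called with siTead1/4 in C2C12 cells at day 0 and day 3 and in the difference between cell types at day 3, and 1 gene (Rassf4) was called in the difference of the day 3 change. Of 20 counts of called genes, 20 stayed within 1.5 times with DESeq2's size factors, 19 with DESeq2, 18 with no filter and 15 with only the compared libraries. No direction was reversed in these fits for a gene called in the reported fit or in the alternative.

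Leaving out 1 replicate of an siRNA gave 0 to 1 called genes with siTead1/4 in C2C12 cells at day 0, 0 to 2 at day 3 and 0 to 1 in PMs at day 3. It gave 1 to 2 for C2C12 day 3 against day 0, 1 to 3 for C2C12 day 6, 1 to 2 for PM day 3, 0 to 2 for the siTead1/4 difference at day 3, 1 to 4 for PMs against C2C12 at day 3, and 0 to 1 and 0 to 2 for the difference of the day 3 and day 6 changes. The lone library left was taken to vary like the other groups. With a siControl replicate left out, the spread came from the siTead1/4 groups alone. With a siTead1/4 replicate left out, it came from the siControl groups alone. A difference that no longer passed in such a fit can thus reflect the fewer libraries behind the spread. The replicate block was kept as an alternative, since the labels do not say that a number marks a shared animal, batch or day, and each comparison has only 2 numbers. Differences between replicates correlated across 15 pairs of groups at -0.168 to 0.468 in C2C12 cells and 0.0548 to 0.503 in PMs. Between siControl and siTead1/4 of the same day they correlated at 0.377, 0.409 and 0.503 in PMs and at -0.13, 0.0896 and 0.468 in C2C12 cells, so a pairing of the PM libraries remains possible. With the block 19 of 20 counts stayed within 1.5 times, and Rassf2 in PMs at day 6 had 1.06 (adjusted p = 0.0202, edgeR). Depth limits Rassf4 and Rassf2 most, with as few as 27 and 43 reads in a library.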
